A study of Mus musculus with 6 samples.

Results

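The immunoglobulin constant region genes are the exons that give an antibody its class, and 9 of them were examined in mouse germinal center (GC) B cells: the heavy chain genes Ighm, Ighd, Ighg3, Ighg1, Ighg2b, Ighg2c, Ighe and Igha on chromosome 12, and the κ light chain gene Igkc on chromosome 6. The members were taken by name from the GRCm38 (mm10) GENCODE annotation, where they are typed as immunoglobulin constant genes, and they are 9 of 21951 protein-coding and immunoglobulin constant genes. Around them, the intervals between neighbouring constant genes, the J segments, the introns between the J segments and the constant exons, and 50 kb beyond the genes on either side were examined as well. These windows hold 268 kb at the heavy chain locus (chr12:113204830-113472730) and 101 kb at the κ locus (chr6:70676435-70776966).

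The data were 6 Mint-ChIP peak lists, 3 for H3K4me3 (antibody ab8580) and 3 for H3K4me1 (antibody ab8895), from the spleens of wild-type mice given sheep red blood cells 8 days earlier as an immunization. Mint-ChIP is a chromatin immunoprecipitation for few cells, in which barcoded nuclease fragments are pooled before the antibody step, and each library came from 50000 sorted cells. The labels call the cells GC centrocytes, the study's methods call them GC B cells, and the labels' protocol text gives an H3K27ac antibody where the titles and the antibody labels name the H3K4 marks. No mutant is part of the series, so the only contrast between groups is that of the marks. Per the study's methods, mice for GC work were immunized as young adults, and the mice behind these libraries are not singled out. Elsewhere in the study the group called WT carried a Cγ1-Cre allele, a recombinase inserted at the Ighg1 gene. Whether the mice behind these libraries carried it is not given, which limits them as a model for Ighg1 in particular. Nothing states that the replicates came from separate mice, so that the spread between them may be technical.

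A B cell first joins V, D and J segments into a variable exon, which is spliced over an intron to Ighm or Ighd and makes IgM or IgD. Class switching then moves the variable exon to a gene further downstream. The DNA is cut in repetitive switch regions that lie before each heavy chain constant gene except Ighd, and a noncoding I exon before the chosen switch region is transcribed beforehand. The intronic enhancers Eμ and iEκ lie in the J-C introns, and a large 3′ regulatory region lies beyond Igha. H3K4me3 is typical of active promoters and their flanks, and H3K4me1 of enhancers. Both the D to J deletion and class switching remove DNA between the joined ends, so that at these loci a weaker mark and fewer copies of the DNA cannot be told apart in peak lists.

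The libraries held 41936 to 46707 H3K4me3 peaks and 11922 to 24136 H3K4me1 peaks, with H3K4me1 replicate 1 the richest of its mark. The labelled cell type was checked on annotated transcription start sites (TSSs): an H3K4me3 peak lay over a TSS in all 3 libraries at 7 of the 7 GC B cell markers reported here (Ms4a1, Cd79a, Pax5, Bcl6, Fas, S1pr2 and Mef2b). The same held for 4 of 4 plasma cell genes (Prdm1, Sdc1, Xbp1 and Irf4), so this check does not tell GC B cells from plasma cells. It held for 0 of 5 T cell, 0 of 4 myeloid and 0 of 4 erythroid genes, against 41.8% of all protein-coding genes. Of the T cell, myeloid and erythroid genes, Cd3d, Cd14 and Hbb-bt had such a peak in some libraries but not in all. The H3K4me3 lists have the broad and the H3K4me1 lists the narrow layout, so that mark and calling mode cannot be told apart.

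The sequences that carry the results are given on the sense strand of the genes, from GRCm38. The heavy chain J-C intron is shown around its single octamer match ATTTGCAT, the site of Oct factors, at chr12:113427278-113427577 (minus strand). Capitals mark that octamer and an E-box CAGGTG, read on the other strand as CACCTG, which E proteins bind.
heavy chain J-C intron: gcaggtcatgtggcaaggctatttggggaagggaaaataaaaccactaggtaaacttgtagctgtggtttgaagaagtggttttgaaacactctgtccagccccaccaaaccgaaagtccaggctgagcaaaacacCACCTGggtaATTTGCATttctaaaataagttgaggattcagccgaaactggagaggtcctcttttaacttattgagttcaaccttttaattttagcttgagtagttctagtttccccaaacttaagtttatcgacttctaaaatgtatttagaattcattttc
The κ J-C intron is shown around its single κB match GGACTTTCC, the element for which NF-κB was named, at chr6:70725610-70725909 (plus strand). Capitals mark the κB match and an E-box.
kappa J-C intron: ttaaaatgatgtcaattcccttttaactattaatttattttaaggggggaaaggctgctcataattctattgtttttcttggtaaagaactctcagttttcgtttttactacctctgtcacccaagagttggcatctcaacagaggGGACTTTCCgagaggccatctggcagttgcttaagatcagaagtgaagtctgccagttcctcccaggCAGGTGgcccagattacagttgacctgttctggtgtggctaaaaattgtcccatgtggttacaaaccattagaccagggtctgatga
Searched on both strands, the octamer was found in 2.61% of 300-bp genome tiles, the κB letters in 0.218% and the E-box in 17.1%. None of these letters overlaps another of the 3 motifs in the stretches shown. A match is a description of the letters and not a bound site.

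The switch repeats are rich in the letters AGCT. Windows of 500 bp with at least 10 AGCT made up 0.0765% of the genome, and joining them gave an AGCT-rich span before each of Ighm, Ighg3, Ighg1, Ighg2b, Ighg2c, Ighe and Igha and none before Ighd. The densest 150 bases of the μ and γ1 spans, at chr12:113424747-113424896 and chr12:113333793-113333942 (both minus strand), show how unlike these repeats are, with 26 and 7 AGCT in capitals.
AGCT-rich span before Ighm: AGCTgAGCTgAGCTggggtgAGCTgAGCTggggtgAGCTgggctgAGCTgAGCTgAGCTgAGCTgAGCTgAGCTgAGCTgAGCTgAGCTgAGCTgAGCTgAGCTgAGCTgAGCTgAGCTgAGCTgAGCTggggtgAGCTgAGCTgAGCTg
AGCT-rich span before Ighg1: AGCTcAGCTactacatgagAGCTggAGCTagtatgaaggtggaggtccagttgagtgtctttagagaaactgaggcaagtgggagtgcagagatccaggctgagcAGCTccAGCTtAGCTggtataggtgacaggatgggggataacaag
Just 5′ of the spans, where I exons lie, H3K4me3 was called in all 3 libraries before Ighm, Ighg3, Ighg2b and Ighe. The centre of the bases shared by the 3 libraries outside the span is shown for the last 3 of these, at chr12:113366190-113366389, chr12:113314798-113314997 and chr12:113277721-113277920 (minus strand). Before Ighg3 the shared bases ran on into the span, and those inside it were left out. None of the 3 motifs was found in the stretches shown, so nothing is in capitals.
before Ighg3: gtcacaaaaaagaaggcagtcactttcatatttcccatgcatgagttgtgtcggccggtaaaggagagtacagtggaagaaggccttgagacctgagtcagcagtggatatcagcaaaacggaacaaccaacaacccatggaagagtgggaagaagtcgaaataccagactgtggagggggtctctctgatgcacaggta
before Ighg2b: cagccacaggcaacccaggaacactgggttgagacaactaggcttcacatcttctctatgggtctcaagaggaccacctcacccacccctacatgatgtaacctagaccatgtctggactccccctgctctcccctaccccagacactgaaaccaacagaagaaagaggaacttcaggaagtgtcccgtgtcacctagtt
before Ighe: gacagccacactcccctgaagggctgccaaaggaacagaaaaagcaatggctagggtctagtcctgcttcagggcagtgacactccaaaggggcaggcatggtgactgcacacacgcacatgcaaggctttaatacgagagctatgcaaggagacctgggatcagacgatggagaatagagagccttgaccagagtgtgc
The heavy chain region with the joint highest standing among H3K4me3 regions of both loci lay 199 to 201 kb after the first base of Ighm, in the flank beyond Igha. The middle of its shared bases, chr12:113222325-113222524 (minus strand), held an E-box, in capitals.
flank beyond Igha: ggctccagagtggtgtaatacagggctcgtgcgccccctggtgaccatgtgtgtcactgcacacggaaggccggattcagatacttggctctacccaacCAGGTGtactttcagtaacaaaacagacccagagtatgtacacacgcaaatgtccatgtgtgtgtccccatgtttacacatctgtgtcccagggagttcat

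**Figure D1:**
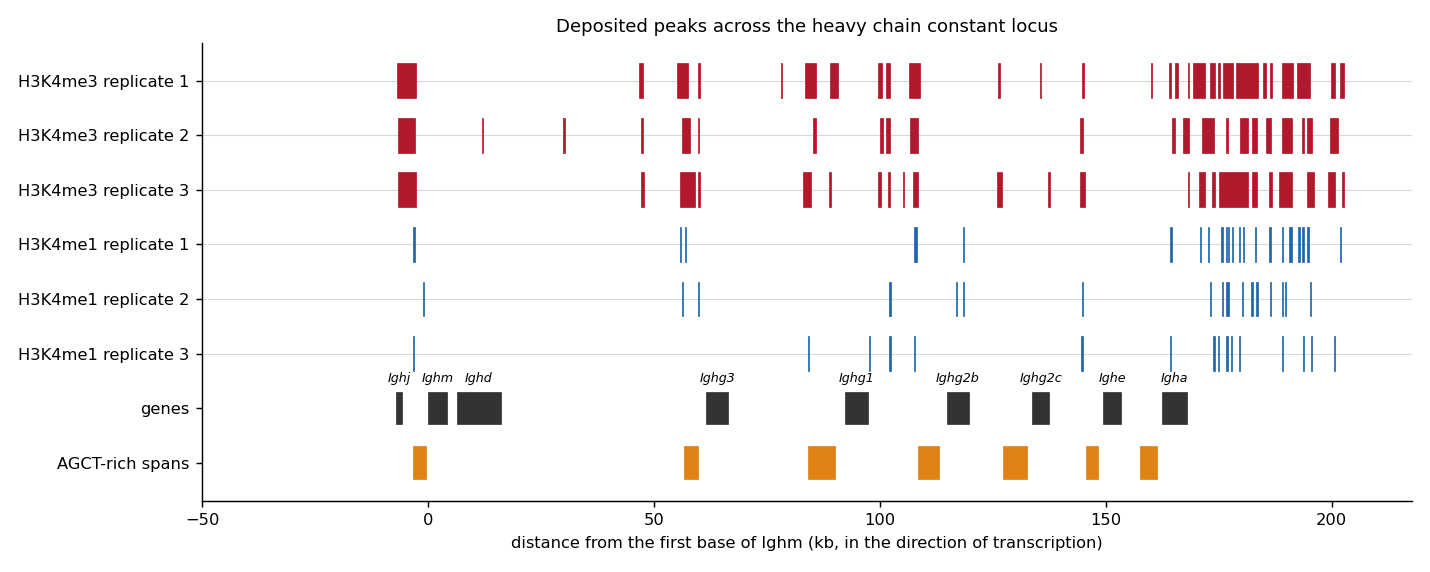
Deposited peaks of each library along the heavy chain constant locus, with distance from the first base of Ighm in kb on the x axis and 1 row per library, constant genes and Ighj segments in dark grey and AGCT-rich spans in orange. H3K4me3 peaks gather at the J-C intron, beside the AGCT-rich spans and beyond Igha, while the genes themselves hold few and the D side none.

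At the 5′ end of the heavy chain locus, an H3K4me3 domain lay over the J segments and the adjoining part of the J-C intron in every library. A single peak was called there in each library, and together they spanned 4.11 kb (chr12:113425400-113429506), from 6.78 to 2.67 kb before Ighm, with the start sites of Ighj3 and Ighj4 inside. Its fold enrichment, the ratio of fragments to local background given by the peak caller, was 7.27, 7.07 and 5.23 in replicates 1, 2 and 3. It covered 75.2%, 65.9% and 65.8% of the bases of the Ighj cluster. Of the J-C intron (chr12:113422731-113428513) it covered 52.9%, 50.5% and 53.8%, a mean of 52.4% ± 1.73 (SD, n = 3), so that the 3 libraries differed little in where this domain lay.

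The octamer in the sequence above, 4694 bp before the first constant base, lay under H3K4me3 in 3 of 3 libraries, as did the 3 E-box matches of the intron, and none of these lay under H3K4me1. The μ AGCT-rich span (chr12:113423216-113426035), between the domain and Ighm, was covered for 20.6%, 15.7% and 22.6%, at its 5′ end. No H3K4me3 peak lay in the stretch from that span to the first Ighm exon. H3K4me1 was called in the intron in all 3 libraries, but not at a shared place: replicates 1 and 3 had a peak at the 5′ edge of the span, 3.29 and 3.38 kb before Ighm at their outer ends, and replicate 2 had one 1.16 to 0.880 kb before Ighm. The H3K4me1 shares of the intron were 6.0%, 4.79% and 4.34%.

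Against the whole constant cluster from Ighm to Igha, the J-C intron was the more densely covered in every library for both marks. The cluster was covered for 8.64%, 5.65% and 6.72% by H3K4me3, and the intron exceeded it by 44.2, 44.8 and 47.1 percentage points (mean 45.4 ± 1.52 SD, n = 3, exact two-sided sign-flip p = 0.25). For H3K4me1 the cluster was covered for 1.04%, 1.13% and 0.933%, and the difference was 4.96, 3.66 and 3.41 points (mean 4.01 ± 0.835 SD, n = 3, exact sign-flip p = 0.25). With 3 libraries this test cannot go below 0.25. For H3K4me3, keeping the 10000 strongest peaks of each library removed the domain from replicate 3, and the differences were then 51.2, 49.4 and 0 points. For H3K4me1, keeping only peaks with a −log10 q-value of at least 5 left −0.466, 0 and 4.19 points, a mean of 1.24, and the 10000 strongest left a mean of 2.15.

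The intron next to Ighj4 is commonly sequenced to count somatic mutations, and the study's primer list holds 2 primers named for it. The 23 genome-matching bases of Jh4-R lie at chr12:113427385-113427407 and those of Jh4-seq at chr12:113427907-113427929, both under H3K4me3 in 3 of 3 libraries and under H3K4me1 in none. In the primers the matching bases are in capitals.
Jh4-R: gactagtCCTCTCCAGTTTCGGCTGAATCC
Jh4-seq: CCATACACATACTTCTGTGTTCC

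**Figure D2:**
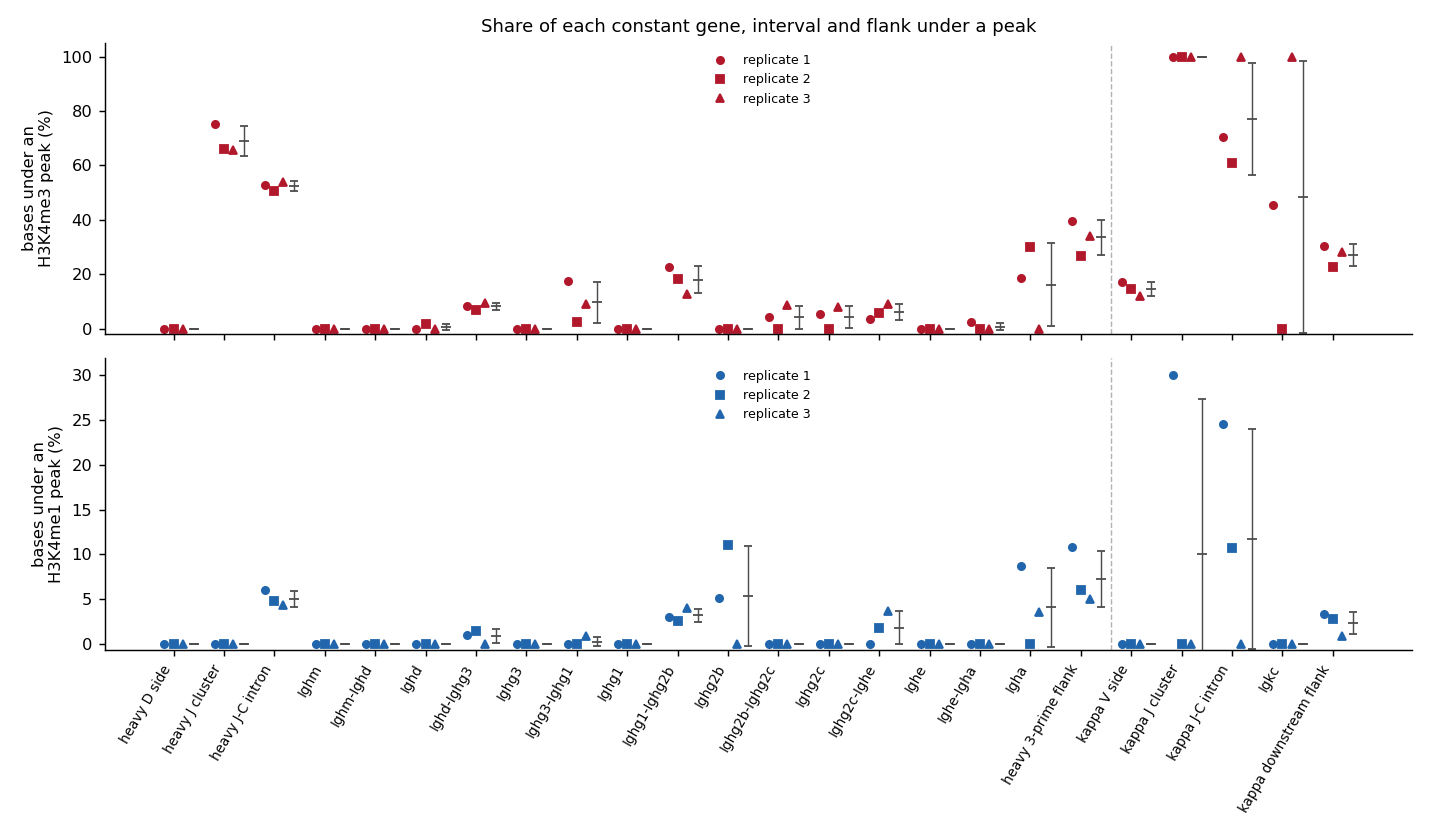
Share of the bases of each gene, interval and flank under a peak (y axis, percent), with H3K4me3 above and H3K4me1 below on different scales, regions in the direction of transcription and the κ locus to the right of the dashed line. Points are libraries and the grey bars beside them the mean and SD of 3 libraries, and the Ighj and Igkj clusters and the J-C introns have the highest H3K4me3 means.

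The heavy chain constant genes themselves were nearly free of peaks, and no member had a peak of either mark over its annotated extent in all 3 libraries. For H3K4me3, 0 of 9 did so, with 3, 2 and 2 members holding a peak in replicates 1, 2 and 3, against 57.4% of all protein-coding genes. For H3K4me1, 0 of 9 did so as well, with 2, 1 and 1 members, against 10.2% of protein-coding genes. Constant genes are short, and among 7774 protein-coding genes of at most 10 kb the shares were 37.3% for H3K4me3 and 1.32% for H3K4me1. All these shares ask for a peak in 3 of 3 libraries, and none is given for single libraries. As so few short genes reached it for H3K4me1, the count of 0 cannot show a lack of that mark. The annotated extents start at the first constant exon and leave out the I exons, so that no I promoter counts as a member's own TSS.

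Ighm, which encodes the constant part of IgM and is the first in line, had no peak of either mark in any library. Ighd, whose IgD is made from the same primary transcript, had an H3K4me3 peak of 182 bp in replicate 2 alone, with a fold enrichment of 3.75, and no H3K4me1 peak. The short interval between Ighm and Ighd was empty as well, so that the stretch from the start of Ighm to the end of Ighd held that single peak.

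Of the IgG genes, Ighg3 and Ighg1 had no peak of either mark in any library. Ighg2b had no H3K4me3 peak but held H3K4me1 in replicates 1 and 2, which covered 5.11% and 11.1% of it, with none in replicate 3. Ighg2c had H3K4me3 in replicates 1 and 3, over 5.35% and 7.90% of its bases, and no H3K4me1. The H3K4me3 peaks of these γ genes were weak, with fold enrichments of 3.30 and 3.62. Their H3K4me1 peaks had summits of 5 to 7 fragments, near the medians of 6 and 7 over both loci in replicates 1 and 2. None of these peaks was found in every library.

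Ighe, the IgE gene, had no peak of either mark. Igha, the IgA gene and the last of the cluster, had the most H3K4me3 of the heavy chain genes, over 18.7%, 29.9% and 0% of its bases, with highest fold enrichments of 5.68 and 5.63. It also held H3K4me1 in replicates 1 and 3, over 8.77% and 3.59%. The ranges of Igha and Ighg2c overlap and both reach 0, so that their order is not beyond the spread between libraries.

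With 5 kb added on either side, the H3K4me3 count was 6 of 9 members in 3 of 3 libraries, against 62.8% of protein-coding genes so extended. These were Ighm, Ighg3, Ighg1, Ighe, Igha and Igkc. For H3K4me1 it was 1 of 9, Ighm, against 14.1%. Both counts were thus near the background of their mark.

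To place the H3K4me3 peaks relative to the switch repeats, a 3-kb window directly 5′ of each AGCT-rich span, the span, the stretch from it to the first constant exon, and the gene were compared for the 7 genes with a span. These windows were drawn after the peaks had been seen, so their values are a description and carry no test. Over all 7 genes, H3K4me3 covered 38%, 28% and 38.6% of the 5′ windows (mean 34.9% ± 5.95 SD, n = 3). It covered 17.7%, 8.70% and 14.9% of the spans, 12.7%, 2.99% and 4.19% of the stretches behind them and 3.71%, 4.98% and 0.879% of the genes. The μ window weighs heavily in these sums. Without Ighm, the windows of the other 6 genes were covered for 27.7%, 16% and 28.4%, their spans for 17.3%, 7.92% and 14.1% and the genes for 4.26%, 5.71% and 1.01%. The windows held more than the spans in each library, but the ranges then met, and single genes went the other way: Ighg3 in replicates 2 and 3 and Ighg1 in replicates 1 and 2 had more in the span, and Igha in replicates 1 and 2 had more over the gene.

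In 3 of 3 libraries, 4 of 7 of the 5′ windows held an H3K4me3 peak, against 4.32% of 3-kb genome tiles. The window before Ighm, which holds the Eμ side of the J-C intron and part of the Ighj cluster, was covered for 100% in every library. Before Ighg2b the coverage was 60.8%, 56.3% and 36.3%, from peaks that together spanned chr12:113313864-113316171 with fold enrichments of 4.99, 4.75 and 5.0. A GENCODE pseudogene, Gm37944, starts within them. The lowest of the μ values was thus above all γ2b values.

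Before Ighg3 the window was covered for 51.8%, 17.2% and 29.5%, and the H3K4me3 there ran on into the AGCT-rich span, of which 29.2%, 42.4% and 75.4% was covered. The region, chr12:113363718-113367586, had fold enrichments of 6.82, 7.82 and 5.72 and, by the sum of its ranks over libraries, stood level with the flank region shown above as the strongest in the loci. A second, weaker region in 3 of 3 libraries lay mostly between the γ3 span and the gene (chr12:113362550-113363071). In replicates 1 and 2 it reached into the 3′ end of the span. Another region lay further 5′, 46.7 to 47.8 kb after the first base of Ighm, away from any span. Ighg3 was therefore the gene with the most H3K4me3 inside its repeats in replicates 2 and 3, while Ighg1 was so in replicate 1.

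Before Ighe the window was covered for 14.1%, 22.7% and 30.4%, by a compact region of 0.935 kb (chr12:113277398-113278332) with fold enrichments of 8.97, 4.67 and 5.05. The ε span itself, 100% of whose 50-base words occur once in the genome, held no H3K4me3 in any library. All Ighg2b values lay above all Ighe values, whereas the range of Ighg3 overlaps those of both, so that its place between them is not beyond the spread.

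Ighg1 and Ighg2c had H3K4me3 in their 5′ windows in replicates 1 and 3 alone, over 19.5% and 34.4% before Ighg1 and over 19.8% and 39.8% before Ighg2c. At Ighg1 peaks of the 3 libraries joined into a region, chr12:113336883-113339734, with fold enrichments of only 3.24, 3.33 and 3.36. The peaks of replicates 1 and 3 crossed the 5′ end of the span. That of replicate 2 lay inside the span and shared no base with that of replicate 3. The span was covered for 47.5%, 11.1% and 21.2%. Replicate 1 had a further peak of 1.87 kb at the 3′ end of that span, and replicate 3 one of 0.465 kb there. The window before Igha held no peak of either mark in any library, and its span held H3K4me3 over 5.68% in replicate 1 alone. Igha was thus the reverse of Ighe: marked over the gene in 2 libraries and not before its repeats.

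H3K4me1 covered 3.62%, 2.28% and 3.62% of the same 5′ windows, against 2.80%, 1.93% and 1.62% of the whole heavy chain locus. In 0 of 7 windows did it occur in all 3 libraries. As only 0.366% of 3-kb tiles did so, that count cannot show a lack of the mark. H3K4me1 was found in at least 1 library before Ighm, Ighg3, Ighg2b and Ighe, the genes whose windows had H3K4me3 in every library. The only AGCT-rich span with H3K4me1 in 3 of 3 libraries was that of Ighm, over 12.3%, 9.82% and 6.24%. Between Ighg1 and Ighg2b, H3K4me1 was called in every library at either of 2 places. One was the window before Ighg2b, in replicates 1 and 3, and the other lay 102 kb after the first base of Ighm, in replicates 2 and 3, where H3K4me3 was also called in all 3 libraries.

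**Figure D3:**
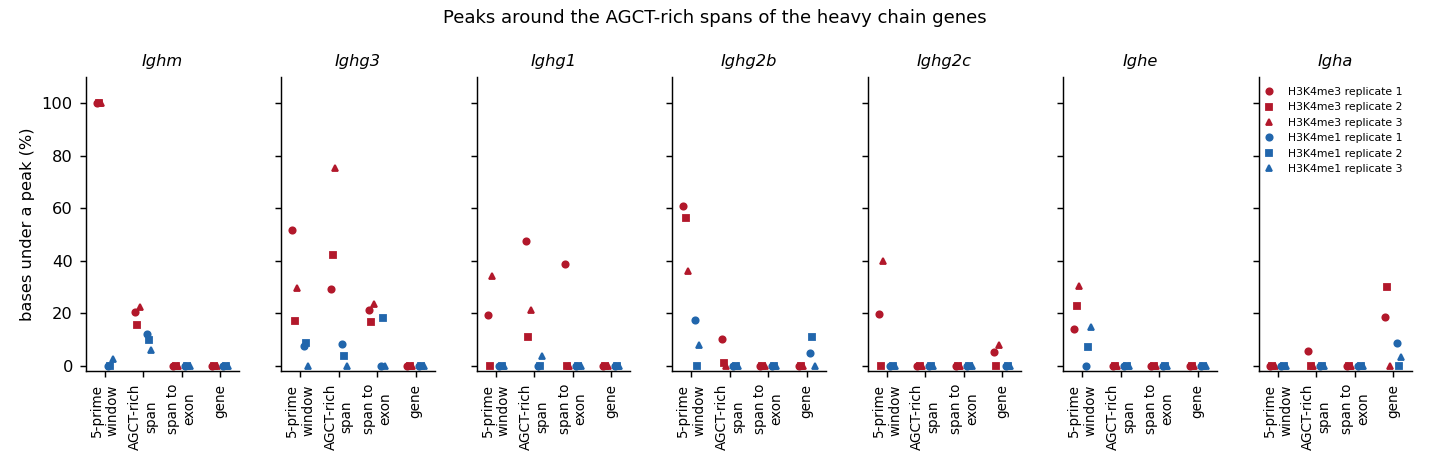
Share of bases under a peak (y axis, percent) in the 5′ window, the AGCT-rich span, the stretch from the span to the first constant exon and the gene, for the 7 heavy chain genes with a span. Points are libraries, red for H3K4me3 and blue for H3K4me1, and the highest red points lie in the 5′ window at Ighm, Ighg2b, Ighg2c and Ighe, in the span at Ighg3 and Ighg1 and in the gene at Igha.

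Reads in repeats can fail to map, and this was read from the genome. Of the 50-base words of the heavy chain locus, 84.3% occur once in the genome, and 83.8% do so in the AGCT-rich spans. Under H3K4me3 peaks the share was 92.8% and outside them 82.3%. The γ2b span, at 50%, and the D side, at 64.3%, were the least unique. H3K4me3 covered 10.3%, 1.12% and 0% of that span and none of the D side. Bases without a peak there thus have less weight than those at the ε span or in the constant genes, all at 95.3% or more. The read length and the treatment of reads with several matches are not given in the sources used here, and the part of mapping in these values was not tested further.

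The flank beyond Igha, which holds the 3′ regulatory region, was densely marked in every library. H3K4me3 covered 39.7%, 26.6% and 34.2% of its 50 kb (mean 33.5% ± 6.55 SD, n = 3) with 12, 10 and 10 peaks, and H3K4me1 covered 10.8%, 6.0% and 5.02% with 16, 10 and 9 peaks. Of the 16 heavy chain regions with H3K4me3 in 3 of 3 libraries, 6 lay in it and 1 more at its border with Igha, chr12:113254254-113255657. Among 54499 genome tiles of 50 kb, 113, 313 and 118 were covered at least as densely by H3K4me3 in the 3 libraries. For H3K4me1 the counts were 26, 48 and 61 tiles, so that the flank stood among the most densely marked stretches of its size for both marks.

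The strongest regions of that flank were narrow for H3K4me1 and broad for H3K4me3. The region printed above (chr12:113221347-113223544) had H3K4me3 fold enrichments of 9.62, 5.70 and 6.19. The widest H3K4me3 region, chr12:113239077-113247900, spanned 8.82 kb. It enclosed 1 of the 2 heavy chain regions with H3K4me1 in 3 of 3 libraries, chr12:113245484-113246169, whose fold enrichments were 4.12, 6.86 and 4.79. The other was chr12:113233395-113233747, at 5.61, 6.75 and 5.85. The highest H3K4me1 fold enrichment in the flank, 10.3 in replicate 2, rested on 13 fragments at the summit, in a peak that overlapped one of replicate 3 and none of replicate 1. On the opposite side, the D side beyond the J segments held no peak of either mark in any library.

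**Figure D4:**
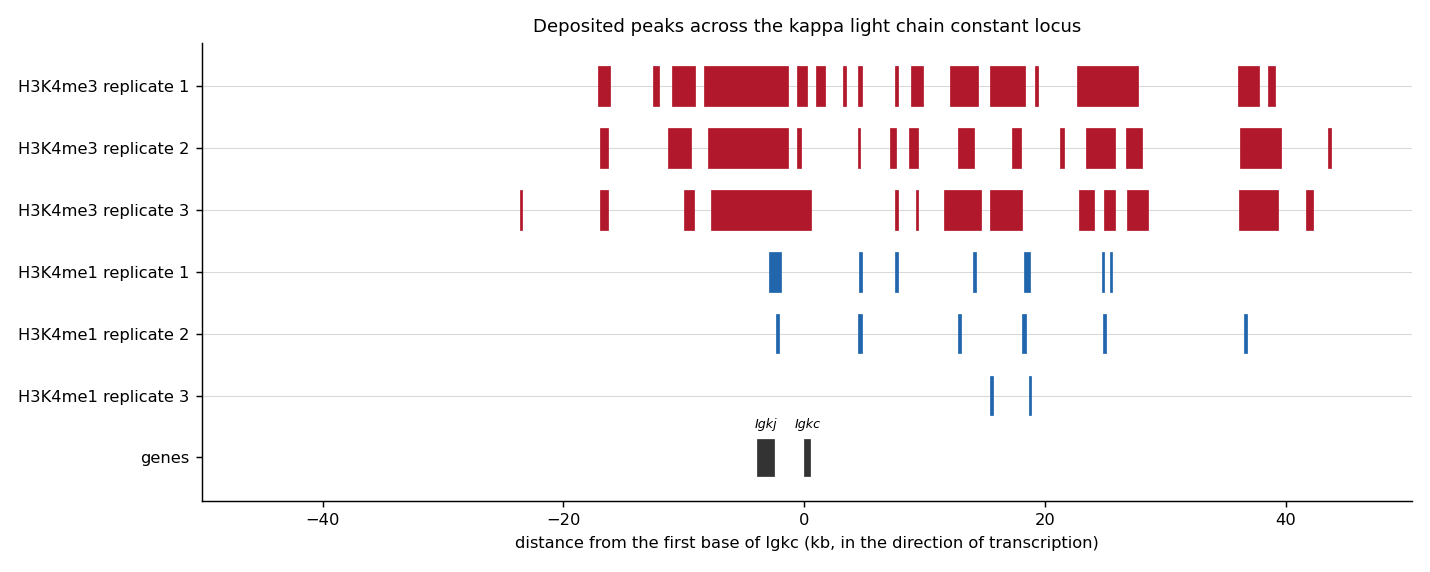
Deposited peaks of each library along the κ constant locus, with distance from the first base of Igkc in kb on the x axis, 1 row per library, and Igkc and the Igkj segments in dark grey. A broad H3K4me3 domain covers the Igkj segments in all 3 libraries and reaches over Igkc fully in replicate 3, and separate H3K4me3 peaks follow downstream.

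At the κ locus the J segments stood inside the widest H3K4me3 domain of either locus. All 3 libraries covered the Igkj cluster for 100%, from a domain that together spanned 8.88 kb, chr6:70718153-70727033, with fold enrichments of 6.30, 5.93 and 5.43. The domain began 8.28, 7.97 and 7.73 kb before Igkc, outside the J segments, and holds the start of a long noncoding RNA, Gm30211. Its 3′ end differed: replicates 1 and 2 were interrupted in the J-C intron (chr6:70723928-70726434), while replicate 3 ran on through Igkc.

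Igkc, the constant exon of the κ light chain, was accordingly covered for 45.3%, 0% and 100%, with fold enrichments of 3.96 and 5.43 in replicates 1 and 3. The κB match printed above, 671 bp before Igkc, lay in the interruption in replicates 1 and 2 and under the peak in replicate 3. The intron was covered for 70.3%, 60.8% and 100%, and exceeded the rest of the locus by 45.1, 41.1 and 78.1 percentage points (mean 54.8 ± 20.3 SD, n = 3, exact sign-flip p = 0.25). Replicate 3 set the spread, and without it the mean was 43.1. With peaks within 1 kb merged, which closes the interruption in replicates 1 and 2, the differences were 69.6, 69.3 and 75.4 points, a mean of 71.4. The libraries thus differed little once such gaps were joined. Among the 10000 strongest peaks of each library the difference was 41.3, 40.1 and 0 points.

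H3K4me1 at the κ J side was found in 2 libraries. Replicate 1 had a peak of 1023 bp across the Igkj cluster and the intron, with a fold enrichment of 4.81, and replicate 2 one of 267 bp in the intron, with a fold enrichment of 9.0 from 11 fragments. Replicate 3 had none. The difference of the intron from the rest of the locus was 22.3, 9.21 and −0.491 points (mean 10.4 ± 11.5 SD, n = 3, exact sign-flip p = 0.5), which is within the spread between libraries. It was 4.36 without replicate 1, 15.8 without replicate 3, 3.26 with a −log10 q-value of at least 5 and 2.86 among the 10000 strongest peaks. Igkc itself held no H3K4me1 in any library.

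Downstream of Igkc, where the 3′ κ enhancers lie, H3K4me3 covered 30.5%, 22.5% and 28.1% of 50 kb. Of the 9 κ regions with H3K4me3 in 3 of 3 libraries, 6 lay there. They included chr6:70735114-70736310, at 8.68 to 9.88 kb after the first base of Igkc, with fold enrichments of 3.67, 4.50 and 4.39. Larger ones lay at chr6:70741884-70744785, with 5.30, 6.08 and 3.76, and at chr6:70749102-70754998, with 5.30, 4.75 and 4.50. The one κ region with H3K4me1 in 3 of 3 libraries, chr6:70744575-70745298, was joined from peaks that did not all share a base. The peaks of replicates 2 and 3 overlapped that of replicate 1 and not each other. Those of replicates 1 and 2 overlapped the end of the H3K4me3 region at chr6:70741884-70744785, and that of replicate 3 lay beyond it. Towards the V segments, 17.0%, 14.5% and 12.1% was covered by H3K4me3 and none by H3K4me1.

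Between the marks, H3K4me3 covered more of both loci than H3K4me1 and the libraries did not overlap. At the heavy chain locus the shares were 14.3%, 9.92% and 12.1% against 2.80%, 1.93% and 1.62%, a difference of 9.99 percentage points. At the κ locus they were 26.3%, 20.7% and 23.9% against 2.68%, 1.67% and 0.478%, a difference of 22.0 points. For both, the exact two-sided permutation p was 0.1, the smallest that 3 against 3 libraries allow. The H3K4me3 lists also held more and wider peaks over the whole genome. Their median widths were 857, 821 and 821 bp, against 270, 264 and 253 bp for H3K4me1. A difference in this direction is thus not particular to these loci. The difference moved with the peaks kept: with a −log10 q-value of at least 5 it was 3.20 and 10.6 points, and with the 10000 strongest peaks of each library 0.264 points (p = 0.7 by the exact permutation test) and 3.99 points (exact p = 0.4). In the latter, H3K4me3 replicate 3 kept 0.599% of the heavy chain locus and none of the κ locus.

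To compare the places of the marks, overlaps of their peaks were counted. Of the 29, 23 and 18 H3K4me1 peaks, 28, 20 and 16 shared at least 1 base with an H3K4me3 peak of any library. These were 96.6%, 87% and 88.9% of them, against 80%, 80.7% and 84.2% of all H3K4me1 peaks of the libraries. With an H3K4me3 peak in each of the 3 libraries, 16, 16 and 9 did so, or 55.2%, 69.6% and 50%, against 60.8%, 62.3% and 66.4% of all H3K4me1 peaks. The overlap at the loci was thus near that of the libraries as a whole. Each H3K4me1 peak rested on few fragments, from 4 to 13 at the summit with a median of 6, 7 and 6.5 in the 3 libraries. A missing H3K4me1 peak therefore says that none was detectable at this depth.

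In strength, the immunoglobulin peaks lay near the middle of their libraries. The median fold enrichment of the H3K4me3 peaks in both loci was 3.98, 4.12 and 3.79, against 4.42, 4.50 and 4.36 over all peaks of the same libraries. On the log2 scale the locus peaks were thus lower by −0.15, −0.13 and −0.20 (mean −0.16 ± 0.0388 SD, n = 3, exact sign-flip p = 0.25). For H3K4me1 the medians were 4.91, 5.49 and 5.12 against 4.91, 5.23 and 5.12, a mean log2 ratio of 0.0231 ± 0.0401 (SD, n = 3, exact sign-flip p = 1). The fold enrichment of the H3K4me3 peaks was below that of the library in 3 of 3 libraries, and that of H3K4me1 differed by less than the spread. Among the 10000 strongest peaks the H3K4me3 mean was −0.0833.

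Other genes of antibody assembly bore H3K4me3 where the heavy chain constant genes did not. Of 11 listed, 9 had an H3K4me3 peak over their extent in 3 of 3 libraries, against 57.4% of protein-coding genes, and all 9 over a TSS, against 41.8%. They include Cd79a and Cd79b, the signalling chains of the B cell receptor, Jchain, which joins IgM and IgA into polymers, and Pou2af1, the coactivator of Oct factors. The λ light chain constant genes Iglc1 and Iglc3 were covered for 100% in all 3 libraries and Iglc2 for 87.0%, 66% and 61.4%, so that the λ genes resembled Igkc in replicate 3 more than any heavy chain gene. Igll1 and Vpreb2, of the surrogate light chain of precursor B cells, had none. H3K4me1 was found in 3 of 3 libraries at 4 of 11, against 10.2%.

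**Figure D5:**
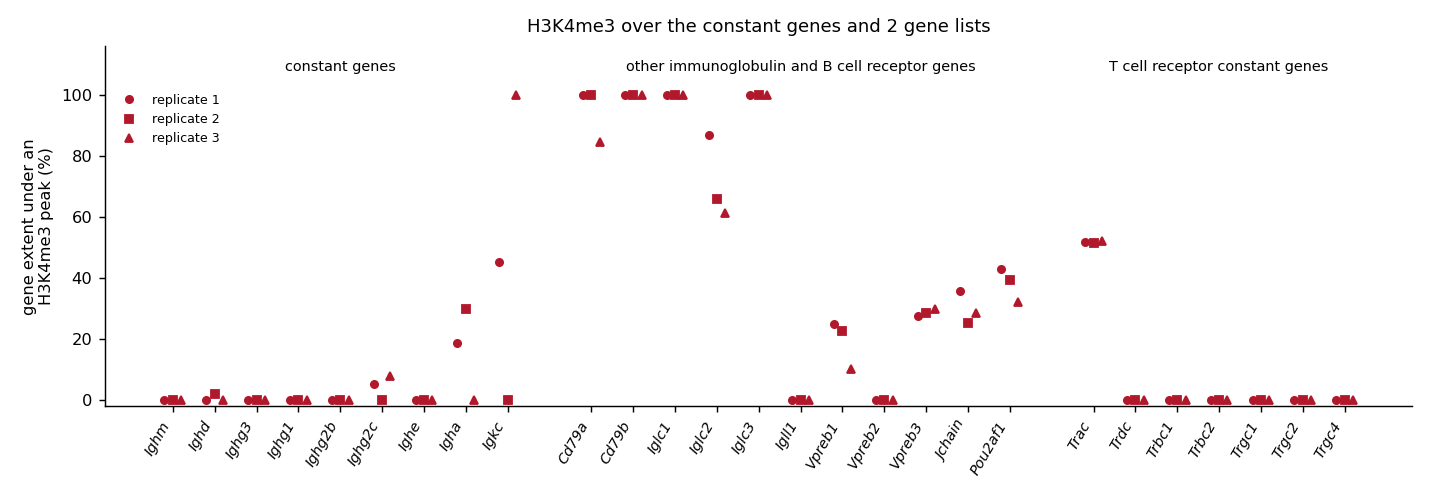
Share of each gene's extent under an H3K4me3 peak (y axis, percent) for the 9 constant genes, 11 other genes of antibody assembly and 7 T cell receptor constant genes, with 1 point per library. No heavy chain gene is covered in every library, and Igha reaches 18.7% and 29.9% in 2 of them, whereas 9 of the 11 assembly genes are covered in every library, and of the T cell receptor genes only Trac is.

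The T cell receptor constant genes have a like order of segments and are not used by B cells. With the same 50 kb on either side, their 3 merged windows of 530 kb were covered by H3K4me3 for 3.28%, 2.82% and 3.31%, and both immunoglobulin loci combined for 17.6%, 12.9% and 15.3%. The difference was 14.3, 10.1 and 12 percentage points (mean 12.1 ± 2.13 SD, n = 3, exact sign-flip p = 0.25). For H3K4me1 the shares were 0.136%, 0.0847% and 0% against 2.76%, 1.86% and 1.31%, a mean difference of 1.90 ± 0.670 points (SD, n = 3, exact sign-flip p = 0.25). Both differences were positive in 3 of 3 libraries, and among the 10000 strongest peaks that of H3K4me3 was 2.53, 2.48 and −0.297 points, a mean of 1.57. With a −log10 q-value of at least 5 the mean differences were 3.15 for H3K4me3 and 0.387 for H3K4me1. Of the 7 genes, Trac alone had H3K4me3 over its extent in 3 of 3 libraries, over 51.9%, 51.6% and 52.1%. These peaks started 1767 to 1785 bp inside Trac and ran on past its 3′ end, and no TSS of Trac lay under H3K4me3 in any library. Of the 5 T cell markers, Cd3e, Cd3g, Cd4 and Cd8a had no H3K4me3 over a TSS in any library and Cd3d had it in replicates 2 and 3.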

How the data were processed

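The 6 Mint-ChIP libraries were grouped by mark from their titles, with 3 replicates each. Per the labels, the submitters' processing notes name BWA, Picard, HOMER, Genrich and the build mm10. The lists, one per library and not pooled, have the layout and value scales of MACS2, and the caller, its control and its thresholds for these lists are not given in the sources used here. The deposited fold enrichment is a ratio of fragments to local background, and the deposited −log10 p-values and −log10 q-values belong to the same comparison. In broad (H3K4me3) lists these are averages over the peak. The deposited score and summit offset were not used in any result.

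Peaks were assigned to regions by an overlap of at least 1 bp, and the measure was the percent of bases under a peak. Genes came from GENCODE vM21 for GRCm38 and sequence from RefSeq's GRCm38.p6. The gene names Trgc1, Trgc2 and Trgc4 were matched to the GENCODE symbols Tcrg-C1, Tcrg-C2 and Tcrg-C4. Fold enrichment and −log10 p of H3K4me1 peaks were inverted to whole summit fragments, which worked for 70 of 70 peaks in the loci within 0.0005. Read totals were not used, so no other depth can be given.

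Differences between marks were tested by two-sided exact permutation over 20 assignments and differences within libraries by exact sign flips. The smallest possible p-values were 0.1 and 0.25, so no result could pass 0.05 and no adjustment was made over the 10 tests. The functions were checked on simulated data. Peaks of the libraries that overlapped were joined into regions, so that not all peaks of a region need share a base. Named peaks were regions in 3 of 3 libraries, at most 12 per mark by rank of −log10 q. The 2 weaker regions before Ighg3, the region at the Ighg1 span and the region 8.68 kb after the first base of Igkc lie outside this rule and, like peaks given for 1 library, were chosen after their values were seen. 2 further genes of the GC B cell marker list are not reported here, so its tally covers part of that list. Members, lists and the rule were chosen with earlier results of these data known. Alternatives were stricter peak sets, other flanks, merging within 1 kb, other overlaps, a replicate block and leaving out each library. Analyses used Python 3.11.15, pandas 2.3.3, numpy 2.4.6, scipy 1.17.1 and matplotlib 3.10.9.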

Additional observations from a re-analysis of the deposited data

How the results depend on the processing

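Of 90 alternative values for the 12 results, 82 were labelled as kept. For tested results this asked only that the sign did not reverse and that p stayed on its side of 0.05, which no p could cross. For counts of members it asked for an equal count or a ratio of at most 1.5. The label says little about size: the heavy chain mark difference was labelled as kept at 0.264 points against 9.99. For the H3K4me1 fold enrichment ratio, the log2 value turned from 0.0231 to −0.0674 with peaks of −log10 q at least 5 and to −0.0245 with the 10000 strongest peaks, all within the spread between libraries. The count of members with a peak in 3 of 3 libraries was 0 and became 6 (H3K4me3) and 1 (H3K4me1) with 5 kb added on either side. Leaving out 1 library, which then asks for 2 of 2, gave 0 to 2 members for H3K4me3 (2 without replicate 2, 1 without replicate 3) and 0 to 1 for H3K4me1 (1 without replicate 2 or 3).

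The labels number the replicates 1 to 3 in both marks. The deviations of same-numbered libraries over 100-kb windows had correlations of 0.0150, 0.0046 and 0.0280, against −0.0280 to 0.0130 for different numbers. Each H3K4me1 library lay closest to the H3K4me3 library of its own number. H3K4me3 replicate 2, however, lay closer to H3K4me1 replicate 1 (0.0130) than to its own number. As all these values were small, the numbers were not taken to pair the samples. With a replicate block, the mark differences stayed 9.99 and 22.0 points, with an exact sign-flip p of 0.25, the smallest it allows.

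H3K4me1 peaks in the loci rest on 4 to 13 summit fragments, which limits what their absence shows. With the 10000 strongest peaks, several H3K4me3 values rest on replicates 1 and 2, since replicate 3 then keeps almost nothing at either locus, and the cause was not tested.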
